A study of Drosophila melanogaster with 30 samples.

Results

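The 10 genes described here encode neural cell adhesion molecules: Nrg, Fas2, Dscam1, Dscam2, Nrx-1, Nrx-IV, Nlg1, Nlg2, Nlg3 and Nlg4. They were chosen by name from the 17562 genes of the count table, and all 10 passed the filter on low counts in every comparison. The series measured N6-methyladenosine (m6A) by immunoprecipitation sequencing in heads of male Drosophila melanogaster, taken 1 to 2 days after eclosion from crosses kept at 25 °C. PolyA+ RNA of 200 heads per replicate was fragmented, a part was kept as input, and the rest was pulled down with an m6A antibody (IP), so that each RNA sample gave an IP and an input library. Both library types were read as counts per gene, and log2 IP/input is used here as the measure of m6A-IP enrichment of a whole gene.

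There were 5 groups of 3 biological replicates, or 30 libraries in all. The first was UAS-dTrmt10A with heat shock (HS, 30 min at 38.5 °C, tissue taken at once afterwards) and the second was control with the same HS. The others were kept in basal conditions and were UAS-dTrmt10A, dTrmt10A RNAi and control. Every group carried the DaGal4 driver, which is active in most or all tissues, so neurons were not targeted alone. It drove a tagged dTrmt10A open reading frame in UAS-dTrmt10A and an RNAi construct against dTrmt10A in dTrmt10A RNAi, and control heads carried it with the KK control line of the Vienna stock centre. dTrmt10A is the fly member of a family of tRNA methyltransferases and is CG14618 in the table.

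Total counts ranged from 20110909 to 51006574 in input and from 16255688 to 30456825 in IP libraries. CG14618 had 235.0 to 252 CPM (counts set against library size) in UAS-dTrmt10A HS, 5.34 to 5.90 CPM in control HS, 146 to 188 CPM in UAS-dTrmt10A basal, 3.75 to 4.01 CPM in dTrmt10A RNAi and 7.42 to 8.60 CPM in control basal input, in the direction of the labels. All 8 neuronal markers examined were detected in every group, with a summed input level of 3798 to 4868 CPM. Heads also hold photoreceptors, glia, fat body, muscle and hemocytes, and no marker of these was at 0 in any group. In whole heads, fewer cells of a type and less RNA per cell cannot be told apart. Scaling by trimmed mean of M values (TMM) was used throughout, and with total library size in its place the median gene moved by -0.35 (control) and -0.37 (UAS-dTrmt10A) on the log2 scale in the comparisons of HS with basal RNA, so changes with heat are relative to the bulk of genes.

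Cell adhesion molecules at the neuronal surface hold axons together, keep branches of one cell apart and join the membranes on either side of a synapse. Nrg (Neuroglian) is the fly L1-type molecule and links to the ankyrin and spectrin skeleton, and Fas2 (Fasciclin 2) is the fly relative of NCAM and acts in axon bundling and synaptic growth. Dscam1 gives rise to a very large number of splice isoforms through which a neuron recognises its own branches, and Dscam2 keeps like neurons of the visual system from overlapping. Nrx-1 is the presynaptic neurexin and Nlg1, Nlg2, Nlg3 and Nlg4 are neuroligins, the partners of neurexins at the synapse. Nrx-IV is related to vertebrate Caspr and builds septate junctions in glia and epithelia together with Nrg and Cont. m6A is added to mRNA by the Mettl3 methyltransferase complex and is read by YTH proteins, and in Drosophila the nervous system is the tissue where it is best known.

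The genes lie on 4 of the large chromosome arms and the X chromosome of dm6 (Ensembl annotation). On X are Nrg (FBgn0264975) from 8517373 to 8555170 and Fas2 (FBgn0000635) from 4132887 to 4206093. Nlg1 (FBgn0051146) and Nlg3 (FBgn0083963) are near each other on 3R, from 7658247 to 7694874 and from 7570281 to 7639434. Nrx-1 (FBgn0038975, 22468512 to 22486969) and Nlg4 (FBgn0083975, 20204809 to 20245473) are also on 3R. Dscam2 (FBgn0265296, 7159199 to 7189931) and Nrx-IV (FBgn0013997, 12146519 to 12156990) are on 3L, Nlg2 (FBgn0031866, 6874900 to 6906656) is on 2L and Dscam1 (FBgn0033159, 7317924 to 7381899) is on 2R.

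All 10 genes are long. Their merged exons span 5137 bases in Nrx-IV to 26496 bases in Dscam1, at the 86.5th to 99.9th percentile of the 10062 genes with annotation that were tested in basal control heads, whose median is 2098 bases. Dscam1 is annotated with 75 transcripts and Dscam2 with 15, while Nrx-IV, Nlg1 and Nlg3 have 2 each. The table holds 1 number per gene, so isoforms were not separated. Exons of Dscam1 share 278 bases (1.05% of their length) with asRNA:CR44071 and 743 bases (2.80%) with asRNA:CR45129 on the opposite strand, and the strand setting of the counting is not given in the sources used here. No exon base of the other 9 members is shared with another gene of the table.

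The members differ in how often their exons hold AAACA, a short sequence counted here on the transcribed strand with overlapping matches; this property was chosen after values were seen. Nrg had 4.60 matches per kb, Fas2 3.97 and Nlg3 3.46, at the 94.4th, 91.0th and 86.3rd percentile of 10041 genes. The other 7 had 0.83 (Dscam1) to 2.25 (Dscam2) per kb, against a median of 1.75 over all genes, of which 90.8% hold at least 1 match. Among these, Nlg2, the member with the highest IP/input, had 1.42 per kb (39.1th percentile). Nrx-IV, with IP/input below 0, had 1.36 per kb (37.3th percentile). Exons of Nrg (43.0% GC, 12.1th percentile) and Fas2 (42.9%, 11.8th percentile) were also low in GC. Nlg3 had 47.8% (38.9th percentile) and Nrx-IV 46.2% (27.1th percentile), against a median of 49.0%. The part of GC content in the AAACA density was not tested. For GGACT, held by 80.4% of genes with a median of 0.803 per kb, the members ranged from 0.354 per kb in Nlg2 to 1.17 in Nlg1. The windows of 30 exon bases that hold the most AAACA matches are printed with the matches in capitals, for the 3 members with the highest density and for Nrx-IV, the member with IP/input below 0, in which no window held more than 1. They come from the RefSeq genome sequence of dm6, read 5′ to 3′ on the transcribed strand, and a match is not a measured m6A site.
Nrg, 3'UTR, chrX:8550367-8550396, plus strand, 3 matches: aaaatgtgtaaaaaaaaAAACAAACAAACA
Fas2, 5'UTR, chrX:4203451-4203480, minus strand, 2 matches: acaccgAAACAgacaaaagaaaaaaAAACA
Nlg3, 3'UTR, chr3R:7571484-7571513, minus strand, 2 matches: aacgtactactctacatgtacAAACAAACA
Nrx-IV, coding sequence, chr3L:12152797-12152826, plus strand, 1 match: aacaaaatttctccggctgcttagaAAACA

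The 10 RNAs were all well covered in these heads. Raw counts of a member ranged from 183 to 19284 in input and from 169 to 17188 in IP libraries, with Nlg1 the lowest in both. Set per length in basal control heads, Nrx-1 was the most abundant of the 10, with 34.2 to 37.3 CPM per kb of exon. Nrg (17.9 to 18.6) and Nlg2 (16.6 to 18.2 CPM per kb) came next and overlapped, followed by Fas2 (14.4 to 16.4) and Dscam2 (13.8 to 14.97 CPM per kb), which overlapped with each other. Below these lay Nrx-IV (11.6 to 11.8), Nlg3 (5.50 to 6.33) and Nlg4 (5.23 to 5.995 CPM per kb), the last pair overlapping. Dscam1 had 4.78 to 4.87 and Nlg1 1.66 to 2.26 CPM per kb. Per length, the neuroligins thus spread from the second-ranked group to the lowest place. The length taken for Dscam1 is that of all its annotated exons, alternative ones included.

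**Figure D1:**
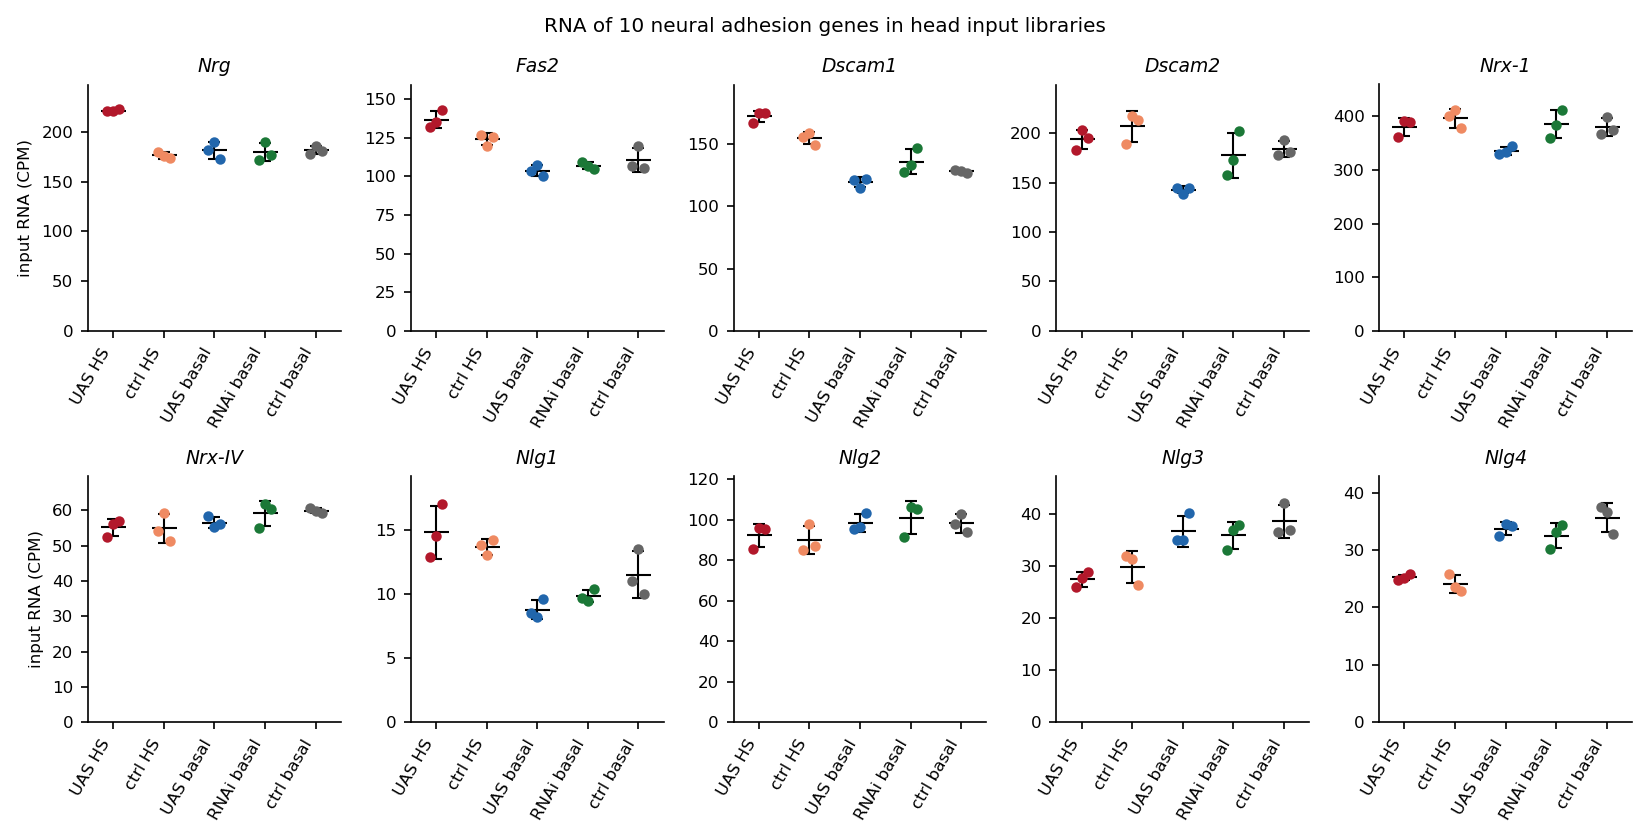
Input RNA in CPM (y axis, from 0, a separate scale for each gene) of the 10 genes in 5 groups of 3 replicates, where points are replicates, horizontal bars are means and whiskers are SD. Nrg in UAS-dTrmt10A HS sits at 221 to 223 CPM, above every other library, and Nlg3 and Nlg4 sit lower in both HS groups than in the basal groups of the same genotype.

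The first question was what HS did to the RNA of these genes. In UAS-dTrmt10A heads, 6 members rose and 2 fell with HS, and in control heads 1 rose and 2 fell, by the threshold of an adjusted p under 0.05. Adjusted p-values come from the quasi-likelihood test of edgeR, with Benjamini-Hochberg correction over all genes tested, and are called edgeR adjusted p from here on. Of all genes, 40.7% passed in UAS-dTrmt10A (18.7% higher and 22.0% lower) and 42.4% in control heads (19.3% higher and 23.1% lower). Nlg3 and Nlg4 fell in both genotypes and Dscam1 rose in both. The libraries of HS and basal heads did not overlap for 8 members in UAS-dTrmt10A and 3 in control heads, as for 52.0% and 53.5% of all genes. The median log2 fold change of the 10 was 0.23 in UAS-dTrmt10A and -0.01 in control heads, where the median of all genes was 0.00 in each.

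Dscam1 had 167, 175 and 175 CPM in UAS-dTrmt10A HS, against 121, 114.7 and 122 CPM in UAS-dTrmt10A basal heads. Control heads had 156, 159 and 149.5 CPM with HS, against 129, 128.5 and 127 CPM in basal conditions. In each genotype all HS libraries were above all basal ones. The log2 fold change was 0.53 (standard error (SE) 0.0593, edgeR adjusted p = 0.000346) in UAS-dTrmt10A and 0.26 (SE 0.0486, edgeR adjusted p = 0.0031) in control heads. On scaling by total library size it was 0.16 (edgeR adjusted p = 0.0604) and -0.10 (edgeR adjusted p = 0.105), so the rise is one against the bulk of genes.

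Dscam2 rose in UAS-dTrmt10A heads, with 184, 203 and 195 CPM in HS, against 145, 139 and 145 CPM in basal heads, without overlap. Its log2 fold change there was 0.44 (SE 0.0612, edgeR adjusted p = 0.000879). Control HS heads had 189, 218 and 214 CPM, against 178, 193 and 181 CPM in control basal heads, and these overlapped (log2 fold change 0.15, SE 0.0653, edgeR adjusted p = 0.0859). With total library size the value was 0.07 in UAS-dTrmt10A heads (edgeR adjusted p = 0.386). In control heads Dscam2 then passed as a fall, at -0.20 (edgeR adjusted p = 0.0246). With TMM and without control HS replicate 1 the control value passed as a rise (0.21, edgeR adjusted p = 0.0282).

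Fas2 had 132, 135 and 143 CPM in UAS-dTrmt10A HS, against 103, 107 and 100.5 CPM in UAS-dTrmt10A basal heads. This rise had a log2 fold change of 0.40 (SE 0.0601, edgeR adjusted p = 0.00127), which became 0.03 with total library size (edgeR adjusted p = 0.73). In control heads Fas2 had 127, 119.6 and 126 CPM with HS, against 107, 119.8 and 105 CPM in basal conditions. There the highest basal library overlapped the HS libraries. With total library size Fas2 fell in control heads (-0.20, edgeR adjusted p = 0.0273). With TMM the log2 fold change of 0.15 missed the threshold (SE 0.0632, edgeR adjusted p = 0.0869). It passed when control basal replicate 2, that library, was left out (0.20, edgeR adjusted p = 0.0392) and with all libraries in one fit (0.17, edgeR adjusted p = 0.0325).

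With TMM scaling Nrg passed the threshold in UAS-dTrmt10A and not in control heads. UAS-dTrmt10A HS heads had 222, 221 and 223 CPM, against 182, 190.1 and 173 CPM in UAS-dTrmt10A basal heads. The log2 fold change was 0.29 (SE 0.0583, edgeR adjusted p = 0.00506) and -0.08 with total library size. Control heads had 180.5, 176 and 174 CPM with HS, against 178, 186 and 181 CPM in basal conditions, and the groups overlapped in part (log2 fold change -0.06, SE 0.0468, edgeR adjusted p = 0.357). Total library size moved the call to the other genotype, since Nrg then fell in control heads (-0.41, edgeR adjusted p = 0.000107) and did not pass in UAS-dTrmt10A heads (edgeR adjusted p = 0.268).

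The neurexins had small log2 fold changes with TMM scaling. Nrx-1 had 361, 390.5 and 390.1 CPM in UAS-dTrmt10A HS, against 329.7, 334 and 344.5 CPM in UAS-dTrmt10A basal heads, a log2 fold change of 0.18 (SE 0.0591, edgeR adjusted p = 0.0404). That call was lost on leaving out any of the 6 replicates except UAS-dTrmt10A HS replicate 1, with adjusted p-values of 0.0562 to 0.125 by the same edgeR test. It was also lost without the filter on low counts (edgeR adjusted p = 0.11). With total library size Nrx-1 passed as a fall in these heads (-0.19, edgeR adjusted p = 0.0318). In control heads Nrx-1 had a log2 fold change of 0.05 (SE 0.0565, edgeR adjusted p = 0.542), and of -0.31 with total library size (edgeR adjusted p = 0.000907). Nrx-IV, the septate junction protein, had 52.5, 56.3 and 56.9 CPM in UAS-dTrmt10A HS, against 58.3, 55.2 and 56.1 CPM in UAS-dTrmt10A basal heads. The groups overlapped there and in control heads, with log2 fold changes of -0.03 (edgeR adjusted p = 0.674) and -0.14 (edgeR adjusted p = 0.118). Without control HS replicate 2 the control value passed (-0.20, edgeR adjusted p = 0.0281), and by total library size Nrx-IV fell in UAS-dTrmt10A (-0.40, edgeR adjusted p = 0.000985) and control heads (-0.50, edgeR adjusted p = 0.000139).

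The 4 neuroligins differed in direction. Nlg1 had 12.9, 14.6 and 17.0 CPM in UAS-dTrmt10A HS, against 8.50, 8.21 and 9.61 CPM in UAS-dTrmt10A basal heads, the largest rise among the members (log2 fold change 0.75, SE 0.121, edgeR adjusted p = 0.00169). It kept its direction with total library size (0.39, edgeR adjusted p = 0.0319). Control heads had 13.8, 13.0 and 14.2 CPM with HS, against 11.04, 13.6 and 9.995 CPM in basal conditions, and overlapped (0.23, SE 0.118, edgeR adjusted p = 0.147, and -0.12 with total library size). The rise passed there without control basal replicate 2 (0.36, edgeR adjusted p = 0.0314).

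Nlg4, which in flies has been linked to sleep and to inhibitory synapses, had 24.9, 25.2 and 25.8 CPM in UAS-dTrmt10A HS, against 32.4, 34.6 and 34.2 CPM in UAS-dTrmt10A basal heads. Control heads had 25.9, 23.6 and 22.8 CPM with HS, against 37.6, 36.7 and 32.8 CPM in basal conditions. No HS library reached a basal one in either genotype. The log2 fold changes were -0.42 (SE 0.0621, edgeR adjusted p = 0.0012) in UAS-dTrmt10A and -0.58 (SE 0.0765, edgeR adjusted p = 0.000517) in control heads.

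Nlg3 had 25.9, 27.6 and 28.8 CPM in UAS-dTrmt10A HS, against 35.0, 34.9 and 40.1 CPM in UAS-dTrmt10A basal heads. Control HS heads had 32.0, 31.2 and 26.3 CPM, against 36.5, 42.1 and 36.8 CPM in control basal heads. Again the groups did not overlap, and the log2 fold changes were -0.42 (SE 0.0799, edgeR adjusted p = 0.0037) and -0.38 (SE 0.0904, edgeR adjusted p = 0.00906). Both falls, of Nlg3 and Nlg4, passed the threshold in 12 of 12 alternatives in each genotype. Nlg2 did not pass, with log2 fold changes of -0.09 (edgeR adjusted p = 0.329) in UAS-dTrmt10A and -0.14 (edgeR adjusted p = 0.129) in control heads, where it passed without control HS replicate 2 (-0.21, edgeR adjusted p = 0.0318). By total library size Nlg2 fell in UAS-dTrmt10A (-0.46, edgeR adjusted p = 0.00114) and control heads (-0.50, edgeR adjusted p = 0.000222).

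With total library size, 1 member rose (Nlg1) and 5 fell in UAS-dTrmt10A and 8 fell in control heads, where 63.5% and 65.2% of all genes passed. Over all genes that scaling turned 1938 higher and 2278 lower genes into 488 and 6084 in UAS-dTrmt10A heads, and 1976 and 2361 into 479 and 6179 in control heads. Directions of single members with heat therefore depended on the scaling for Nrg and Nrx-1 in UAS-dTrmt10A heads and for Nrx-1, Nlg1, Fas2, Dscam1 and Dscam2 in control heads, and these are all below 0 with total library size. Of the neuronal markers, 6 of 8 were higher with HS in UAS-dTrmt10A heads (median log2 fold change 0.31), with a summed level of 4673 to 4868 CPM in HS, against 3798 to 3888 CPM in basal heads. In control heads 2 were higher and 1 lower (median 0.10), with 4354 to 4567 CPM in HS, against 4000 to 4182 CPM in basal heads. Muscle markers were higher for 6 of 6 in UAS-dTrmt10A (7610.0 to 8262 CPM in HS, against 5071 to 6142 CPM in basal heads) and for 5 of 6 in control heads (6009 to 7691 CPM in HS, against 4879 to 5737 CPM in basal heads). Photoreceptor markers were higher for 3 of 6 in UAS-dTrmt10A and 4 of 6 in control heads. Of 8 glial markers 3 were higher and 1 lower in each genotype. Hemocyte markers were higher for 2 of 6 in UAS-dTrmt10A and for 0 in control heads, and fat body markers for 0 of 6 in UAS-dTrmt10A and 2 of 6, with 1 lower, in control heads. The part of these cell types in the members' changes was not tested.

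**Figure D2:**
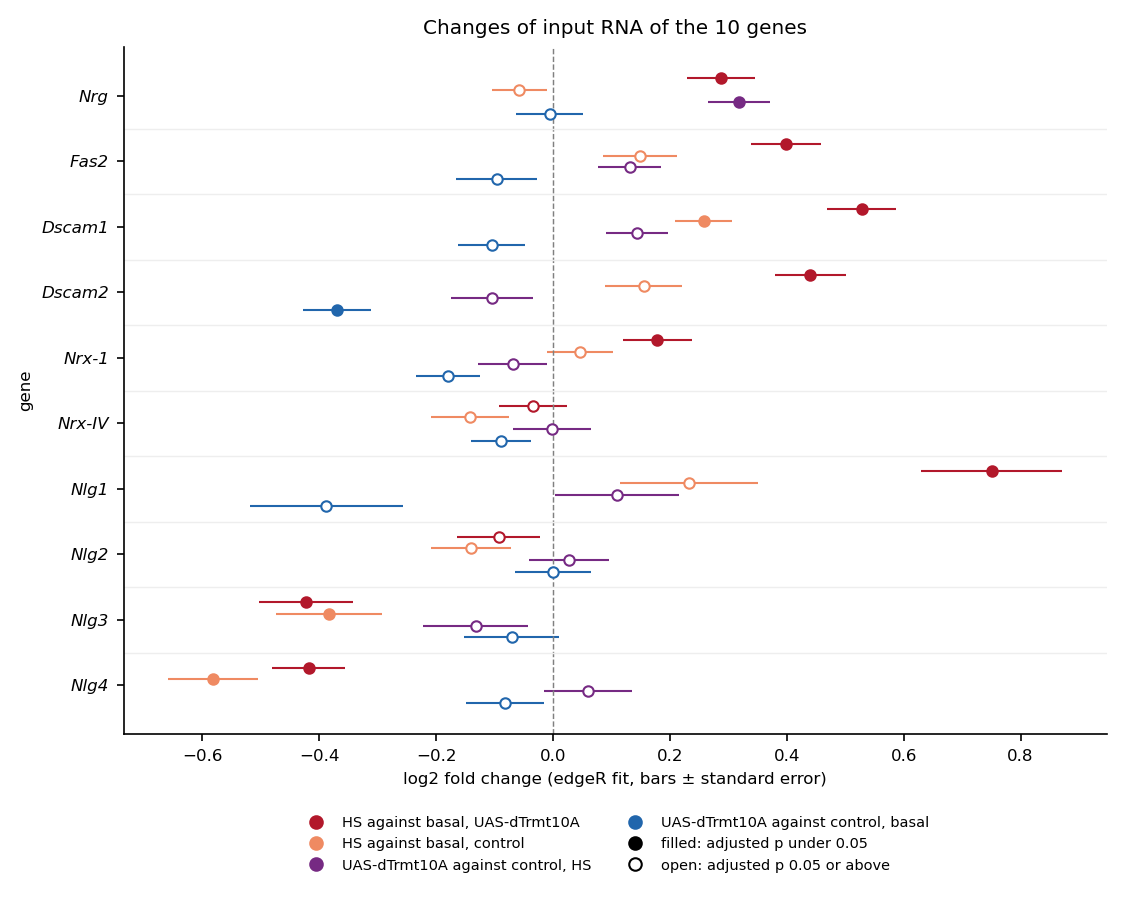
Log2 fold changes of input RNA (x axis) of the 10 genes (y axis) in 4 comparisons, from the edgeR fit with TMM scaling, where bars are ± SE and filled points have an adjusted p under 0.05. The values for HS against basal in UAS-dTrmt10A lie above 0 for Nrg, Fas2, Dscam1, Dscam2, Nrx-1 and Nlg1 and below 0 for Nlg3 and Nlg4, and those of Nrg and Nrx-1 turn below 0 with total library size, as do the control values of Nrx-1, Nlg1, Fas2, Dscam1 and Dscam2.

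Whether the response to HS differed between genotypes was tested as an interaction. None of the 10 members passed (0.0379% of all genes did, that is 4 of 10544), while 5 members and 1534 genes had an unadjusted p under 0.05. The difference in log2 fold change, UAS-dTrmt10A minus control, was 0.33 for Nrg (SE 0.0677, edgeR adjusted p = 0.0773), 0.26 for Dscam1 (SE 0.0683, edgeR adjusted p = 0.14) and 0.27 for Dscam2 (SE 0.0895, edgeR adjusted p = 0.207). It was 0.51 for Nlg1 (SE 0.179, edgeR adjusted p = 0.225) and 0.23 for Fas2 (SE 0.0858, edgeR adjusted p = 0.237). With DESeq2's Wald test Nrg (adjusted p = 0.000659) and Dscam1 (adjusted p = 0.0228) passed, where 1.93% of all genes did (128 higher and 76 lower). That more members passed in UAS-dTrmt10A than in control heads is therefore not shown to be a difference between the genotypes.

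Next, UAS-dTrmt10A and control heads were compared in the same condition. The HS groups differed in 1 member, which was higher, where 6.53% of all genes passed and 3.2% were higher: Nrg had 222, 221 and 223 CPM in UAS-dTrmt10A HS, against 180.5, 176 and 174 CPM in control HS heads. Each UAS-dTrmt10A library was above each control library. The log2 fold change was 0.32 (SE 0.0529, edgeR adjusted p = 0.0142) and stayed between 0.28 and 0.33 in the alternatives, of which 10 of 12 passed. It missed the threshold without control HS replicate 3 (edgeR adjusted p = 0.0585) and without UAS-dTrmt10A HS replicate 2 (edgeR adjusted p = 0.0591). In these inputs libraries with the same replicate number deviated together, and with the replicate block Nrg had an edgeR adjusted p of 0.00716, beside 1195 genes called (11.6%) in place of 672.

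Fas2 and Dscam1 also did not overlap between these groups. Fas2 averaged 137 ± 5.50 CPM in UAS-dTrmt10A HS and 124 ± 3.83 CPM in control HS heads (SD, n = 3 each), and the log2 fold change of 0.13 did not pass (edgeR adjusted p = 0.18). Dscam1 averaged 172 ± 4.53 CPM in UAS-dTrmt10A HS and 155 ± 4.85 CPM in control HS heads (SD, n = 3 each), with a log2 fold change of 0.14 (edgeR adjusted p = 0.144). In all, 3 of 10 members had groups that did not overlap, as did 30.3% of all genes.

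In basal conditions 1 member passed and was lower, where 2.81% of all genes passed and 1.01% were lower. Dscam2 had 145, 139 and 145 CPM in UAS-dTrmt10A basal, against 178, 193 and 181 CPM in control basal heads. There was a wide gap between the groups, and the log2 fold change was -0.37 (SE 0.0585, edgeR adjusted p = 0.0131). It did not pass without control basal replicate 2 (edgeR adjusted p = 0.0805) or replicate 3 (edgeR adjusted p = 0.056), nor with the replicate block (edgeR adjusted p = 0.0613, where 1.68% of all genes passed). Another 4 members were lower in every UAS-dTrmt10A library than in any control library and did not pass. Their log2 fold changes were -0.18 for Nrx-1 (edgeR adjusted p = 0.153), -0.39 for Nlg1 (edgeR adjusted p = 0.188), -0.09 for Nrx-IV (edgeR adjusted p = 0.46) and -0.11 for Dscam1 (edgeR adjusted p = 0.424). Groups did not overlap for 5 of 10 members, all lower, and for 22.0% of all genes, 10.7% being lower. The summed level of the 10 was 1110, 1114 and 1129 CPM in UAS-dTrmt10A basal, against 1202, 1281 and 1200 CPM in control basal heads, while the neuronal markers summed to 3798 to 3888 CPM in UAS-dTrmt10A basal and 4000 to 4182 CPM in control basal heads. Of the 8 neuronal markers 1 passed and was lower, Syn (-0.32, edgeR adjusted p = 0.0288), and their median log2 fold change was -0.07. The part of the neuronal markers in these values was not tested. This comparison shares its control libraries with that of dTrmt10A RNAi and its UAS-dTrmt10A libraries with that of HS.

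In dTrmt10A RNAi heads no member passed, where 0.714% of all genes did, and none had an unadjusted p under 0.05, as 1017 of all genes did. The log2 fold changes ran from -0.22 for Nlg1 (SE 0.119, edgeR adjusted p = 0.616) to 0.09 for Dscam1 (SE 0.0689, edgeR adjusted p = 0.777), and the groups overlapped for all 10, while they did not for 14.9% of all genes. DESeq2's Wald test also called none of the 10. Within dTrmt10A RNAi heads Dscam2 had 157.5, 173 and 202 CPM.

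m6A-IP enrichment was measured as log2 IP/input in each group. Of the 10 members, 9 had more IP than input in all 5 groups by the fitted value, except that Nlg1 turned to -0.16 in UAS-dTrmt10A HS heads with total library size, and Nrx-IV had less in all 5. In control basal heads 8 members were higher and 1 lower in IP, where 69.8% of all genes passed in either direction (35.3% higher and 34.6% lower). The counts were the same in UAS-dTrmt10A HS (69.4% of all genes passed, 33.6% higher and 35.8% lower) and UAS-dTrmt10A basal heads (62.4% passed, 31.1% higher and 31.3% lower), with Nlg1 short of the threshold in each of these 3 groups. In control HS (70.8% passed, 35.0% higher and 35.7% lower) and dTrmt10A RNAi heads (73.7% passed, 35.4% higher and 38.4% lower) 9 members were higher and 1 lower. The median of the 10 was 0.70 in UAS-dTrmt10A HS, 0.89 in control HS, 0.48 in UAS-dTrmt10A basal, 0.79 in dTrmt10A RNAi and 0.70 in control basal heads, against medians of all genes of -0.08 to -0.05. Medians of the 8 neuronal markers were above those of the members in every group, at 0.83 in UAS-dTrmt10A HS, 1.26 in control HS, 0.57 in UAS-dTrmt10A basal, 1.19 in dTrmt10A RNAi and 1.097 in control basal heads. In control basal heads the medians were 0.755 for muscle and 0.62 for photoreceptor markers, near that of the members. They were -0.14 for glial, -0.35 for hemocyte and -0.50 for fat body markers. Members share long exons, and over the 10062 genes exon length and log2 IP/input in control basal heads had a Spearman correlation of 0.318 (a description across genes, which are not independent). The correlation was 0.333 for the length of the longest 5'UTR and 0.311 for that of the longest 3'UTR.

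**Figure D3:**
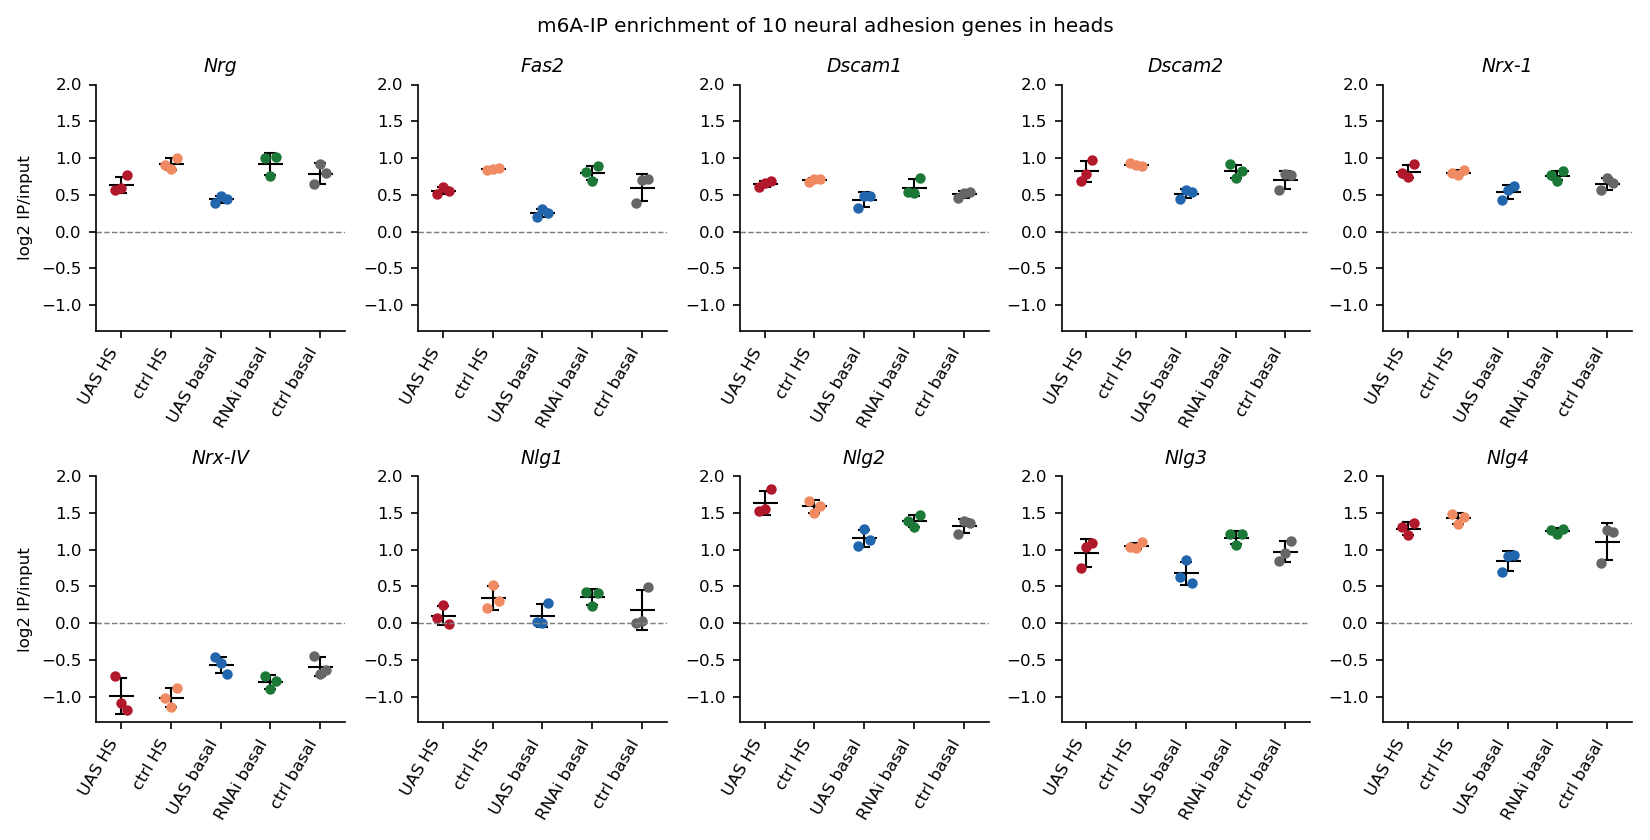
Log2 IP/input (y axis, 1 scale for all panels, dashed line at 0) of the 10 genes in 5 groups of 3 replicates, where points are RNA samples, horizontal bars are means and whiskers are SD. Nlg2 lies highest, at 1.05 to 1.82, and Nrx-IV lies below 0 in every sample, at -1.19 to -0.45.

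Nlg2 was the most enriched member in every group. Its log2 IP/input was 1.53, 1.55 and 1.82 in UAS-dTrmt10A HS, 1.66, 1.499 and 1.59 in control HS, 1.05, 1.27 and 1.13 in UAS-dTrmt10A basal, 1.39, 1.30 and 1.47 in dTrmt10A RNAi and 1.21, 1.39 and 1.36 in control basal heads. In control basal heads the fitted value of 1.34 (SE 0.0839, edgeR adjusted p = 3.91e-07) was at the 94.5th percentile of all genes tested. Nlg4 (1.13, SE 0.101, edgeR adjusted p = 3.54e-06) and Nlg3 (0.99, SE 0.0956, edgeR adjusted p = 6.04e-06) followed there, at the 91.0th and 88.2nd percentile. Nlg1 was apart from the other neuroligins, with 0.01, 0.02 and 0.49 in the control basal samples and a fitted value of 0.19 (SE 0.137, edgeR adjusted p = 0.24). Its fitted value was 0.36 (edgeR adjusted p = 0.00758) in control HS and 0.34 (edgeR adjusted p = 0.018) in dTrmt10A RNAi heads, and both calls were lost with total library size. They were also lost without control HS replicate 2 (edgeR adjusted p = 0.058) and without dTrmt10A RNAi replicate 1 (edgeR adjusted p = 0.0895) or 3 (edgeR adjusted p = 0.0602).

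The homophilic molecules and Nrx-1 lay between these. In control basal heads the fitted log2 IP/input was 0.81 for Nrg (SE 0.0872, edgeR adjusted p = 1.33e-05), 0.73 for Dscam2 (SE 0.0883, edgeR adjusted p = 3.17e-05), 0.67 for Nrx-1 (SE 0.0824, edgeR adjusted p = 3.41e-05), 0.63 for Fas2 (SE 0.113, edgeR adjusted p = 0.000518) and 0.53 for Dscam1 (SE 0.0703, edgeR adjusted p = 6.42e-05). They stood at the 74.0th (Dscam1) to 83.2nd percentile (Nrg). Within the group each SD was 0.05 to 0.18, so neighbours in this order overlapped. The lowest of these calls was that of Fas2 in UAS-dTrmt10A basal heads, at 0.25 (SE 0.0784, edgeR adjusted p = 0.0191), which was lost without replicate 2 (edgeR adjusted p = 0.108) or replicate 3 (edgeR adjusted p = 0.123).

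Nrx-IV was depleted in IP. Its log2 IP/input was -0.71, -1.08 and -1.19 in UAS-dTrmt10A HS, -1.02, -1.15 and -0.89 in control HS, -0.47, -0.55 and -0.69 in UAS-dTrmt10A basal, -0.71, -0.90 and -0.80 in dTrmt10A RNAi and -0.45, -0.69 and -0.64 in control basal heads. In control basal heads the fitted value was -0.57 (SE 0.0849, edgeR adjusted p = 0.000137), at the 22.4th percentile. Nrx-IV thus differed in sign from the neuronal neurexin Nrx-1 in all 15 RNA samples. Depletion was also seen in markers of glia, fat body and hemocytes, and so was not particular to glia. Of 8 glial markers, 4 were lower in IP in control basal heads, among them Gat (-0.91), alrm (-0.74) and Eaat1 (-0.59). Another 2 were higher, repo (0.98) and moody (0.54), and the median of the 8 was -0.14. Of 6 fat body markers 2 were lower and 0 higher (median -0.50). Of 6 hemocyte markers 4 were lower and 1 higher (median -0.35). Nrx-IV is also the member with the shortest exons, though at the 86.5th percentile of all genes. Its longest 5'UTR, of 336 bases (68.4th percentile), is the shortest among the members as well. With Nlg3 and Nlg1 it has the fewest transcripts, and those 2 had fitted values above 0. The part of exon length, 5'UTR length and transcript number in the depletion of Nrx-IV was not tested.

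How HS changed IP/input was tested as the difference of the log2 ratios. In the fit without a replicate term no member passed in UAS-dTrmt10A (0.0378% of all genes did, and 7 members and 1877 genes had an unadjusted p under 0.05) or in control heads (0.0% did, and 4 members and 874 genes had an unadjusted p under 0.05), nor did any by DESeq2's Wald test. IP and input libraries of the same number come from 1 RNA sample and deviated together, and a block for the RNA sample made 7 members pass in UAS-dTrmt10A heads (18.6% of all genes) and 1, Nrx-IV, in control heads (1.72% of all genes). The fitted value was above 0 for 8 members in UAS-dTrmt10A and 9 in control heads, and the median of the 10 was 0.29 and 0.20, against 0.03 and 0.01 over all genes. The 8 neuronal markers had medians of 0.30 in UAS-dTrmt10A and 0.19 in control heads in the same comparisons, and 37 other neural adhesion molecules had 0.21 and 0.14. Their part in the members' values was not tested. Groups of samples did not overlap for 8 members in UAS-dTrmt10A and 7 in control heads, as for 34.0% and 22.5% of all genes. With total library size the median gene moved by -0.26 in UAS-dTrmt10A and -0.15 in control heads, and Nrx-IV, Nlg1, Nrg and Dscam1 in UAS-dTrmt10A and Nrx-IV and Nlg3 in control heads were then below 0.

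In UAS-dTrmt10A heads, Nlg2 had 1.53, 1.55 and 1.82 with HS, against 1.05, 1.27 and 1.13 in basal conditions, without overlap. The change was 0.49 (SE 0.151, edgeR adjusted p = 0.153), and with the block the edgeR adjusted p was 0.000532. Nlg4 had 1.30, 1.19 and 1.36 with HS, against 0.69, 0.91 and 0.93 in basal conditions. Its change of 0.44 had an edgeR adjusted p of 0.143, and of 0.00249 with the block. Nlg1 stood at -0.01 (SE 0.214, edgeR adjusted p = 0.985), and Nlg3 had a difference of 0.30 with overlapping samples (edgeR adjusted p = 0.34, and 0.0453 with the block). Input RNA of Nlg4 and Nlg3 fell with HS in these heads (log2 fold change -0.42 each), while that of Nlg2 overlapped (-0.09). A lower input by itself raises the ratio, and IP levels alone were not compared.

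Of the other members in these heads, Dscam2 had a difference of 0.32 (edgeR adjusted p = 0.213, and 0.0116 with the block), Fas2 of 0.31 (edgeR adjusted p = 0.177, and 0.00992 with the block) and Nrx-1 of 0.28 (edgeR adjusted p = 0.233, and 0.0189 with the block). Dscam1 (0.22) and Nrg (0.21) did not pass in either fit, with edgeR adjusted p-values of 0.0617 and 0.0814 with the block. Both turned below 0 with total library size, at -0.038 (Dscam1) and -0.054 (Nrg). The other differences came to 0.052 for Dscam2, 0.047 for Fas2, 0.016 for Nrx-1 and 0.037 for Nlg3 under that scaling, and to 0.23 for Nlg2 and 0.18 for Nlg4.

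Nrx-IV had values of the opposite sign. It stood at -0.71, -1.08 and -1.19 in UAS-dTrmt10A HS, against -0.47, -0.55 and -0.69 in UAS-dTrmt10A basal heads, and each HS sample was below each basal one. The change was -0.42 (SE 0.135, edgeR adjusted p = 0.16, and 0.00656 with the block), and -0.68 with total library size (edgeR adjusted p = 0.0374, where 5.32% of all genes passed). In control heads it had -1.02, -1.15 and -0.89 with HS, against -0.45, -0.69 and -0.64 in basal conditions, a change of -0.41 (SE 0.117, edgeR adjusted p = 0.475, and 0.0439 with the block). Its input RNA overlapped between HS and basal heads in both genotypes, as given above.

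In control heads the other 9 members had differences of 0.10 (Nlg3, -0.043 with total library size) to 0.34 (Nlg4), and none passed with or without the block. Input RNA of Nlg3 (-0.38) and Nlg4 (-0.58) fell with HS in these heads as well. Nlg2 came closest after Nrx-IV, at 0.28 (edgeR adjusted p = 0.537, and 0.0523 with the block). Fas2 had 0.83, 0.86 and 0.86 with HS, against 0.39, 0.70 and 0.71 in basal conditions, so all HS samples were above the basal ones with basal replicate 1 furthest below. The difference between genotypes in this response ran from -0.19 (Nlg1) to 0.23 (Nlg2), and no member passed (0.0% of all genes) or had an unadjusted p under 0.05, as 300 genes did; DESeq2's Wald test called none of the 10.

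UAS-dTrmt10A and control heads were then compared for IP/input in the same condition. Nrg and Fas2 were lower in UAS-dTrmt10A heads in basal conditions and with HS, with samples that did not overlap, and did not pass without the block in edgeR with all replicates. In basal conditions Nrg had 0.39, 0.48 and 0.44 in UAS-dTrmt10A, against 0.64, 0.93 and 0.79 in control heads. The change was -0.35 (SE 0.114, edgeR adjusted p = 0.233, and 0.00674 with the block), and -0.22 with total library size. Fas2 had 0.20, 0.31 and 0.25 in UAS-dTrmt10A, against 0.39, 0.70 and 0.71 in control heads. The change was again -0.35 (SE 0.141, edgeR adjusted p = 0.341, and 0.0133 with the block), and -0.22 with total library size.

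With HS, Nrg had 0.57, 0.59 and 0.77 in UAS-dTrmt10A, against 0.90, 0.84 and 1.01 in control heads, a change of -0.26 (SE 0.0999, edgeR adjusted p = 0.208, and 0.0359 with the block). Fas2 had 0.52, 0.61 and 0.55 in UAS-dTrmt10A, against 0.83, 0.86 and 0.86 in control heads, a change of -0.28 (SE 0.092, edgeR adjusted p = 0.152, and 0.018 with the block). Each UAS-dTrmt10A sample was below each control sample. Groups did not overlap for 2 of 10 members in each condition, both lower, as for 25.0% of all genes in basal conditions (14.0% lower) and 30.4% with HS (13.1% lower). No member passed without the block (0.0% of all genes in basal conditions and 0.945% with HS), and with it 2 passed in each, where 7.97% of all genes in basal conditions (6.5% lower) and 12.5% with HS (5.3% lower) did. An unadjusted p under 0.05 was found for 3 members and 1249 genes in basal conditions and for 2 members and 1736 genes with HS, and DESeq2's Wald test called 0 members in basal conditions and 1, Fas2, with HS (-0.32, adjusted p = 0.0425, where 2.8% of all genes passed). Nrg also passed with HS without UAS-dTrmt10A HS replicate 3 (-0.41, edgeR adjusted p = 0.0495). Nrg RNA was higher with HS in UAS-dTrmt10A than in control heads (log2 fold change 0.32) while in basal conditions its input libraries overlapped. For Fas2 the RNA value with HS was 0.13, which did not pass. A higher input by itself lowers the ratio, and IP levels alone were not compared.

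Nlg3 was the remaining member with an unadjusted p under 0.05 in basal conditions. It had 0.62, 0.85 and 0.55 in UAS-dTrmt10A, against 0.84, 0.95 and 1.12 in control heads, which overlapped, and a change of -0.29 (SE 0.134, edgeR adjusted p = 0.403, and 0.0666 with the block). Nrg, Fas2 and Nlg3 are also the 3 members with the most AAACA per kb. The motif was chosen after values were seen and these 3 members by those same values. Over 10 genes the match is thus a description and not a test. Nlg4, with 2.23 AAACA per kb, averaged 0.845 in UAS-dTrmt10A basal and 1.107 in control basal heads, with overlapping samples. The match did not hold with HS, where Nlg3 was at -0.064, nearer 0 than Nlg1 (-0.23) and Nlg4 (-0.13). Over all members in basal conditions 9 values were below 0 with TMM scaling, of which Nrx-1 (0.025), Nlg1 (0.083) and Dscam1 (0.059) turned above 0 with total library size, where the median gene moved by 0.13. The median of the 10 was -0.18 against 0.01 for all genes with TMM. The 8 neuronal markers had a median of -0.26 and the 37 other neural adhesion molecules of -0.12. With HS the medians were -0.07 for the members, 0.05 for all genes, -0.18 for the markers and -0.085 for the other adhesion molecules. With HS 1 marker, fne, passed and was lower (-0.80, edgeR adjusted p = 0.0146). The part of these genes in the members' values was not tested.

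In dTrmt10A RNAi heads no member passed in either fit (0.0% of all genes without and 0.029% with the block). Fas2 had 0.81, 0.69 and 0.89 in dTrmt10A RNAi, against 0.39, 0.70 and 0.71 in control basal heads, which overlapped (0.16, SE 0.139, edgeR adjusted p = 1.0). Nrx-IV alone had groups that did not overlap, as did 10.6% of all genes, with a change of -0.24 (SE 0.112, unadjusted p = 0.0472, edgeR adjusted p = 1.0). It was the 1 member with an unadjusted p under 0.05, as 304 genes were, and DESeq2's Wald test called none of the 10. The median of the 10 changes was 0.10, against -0.01 over all genes.

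**Figure D4:**
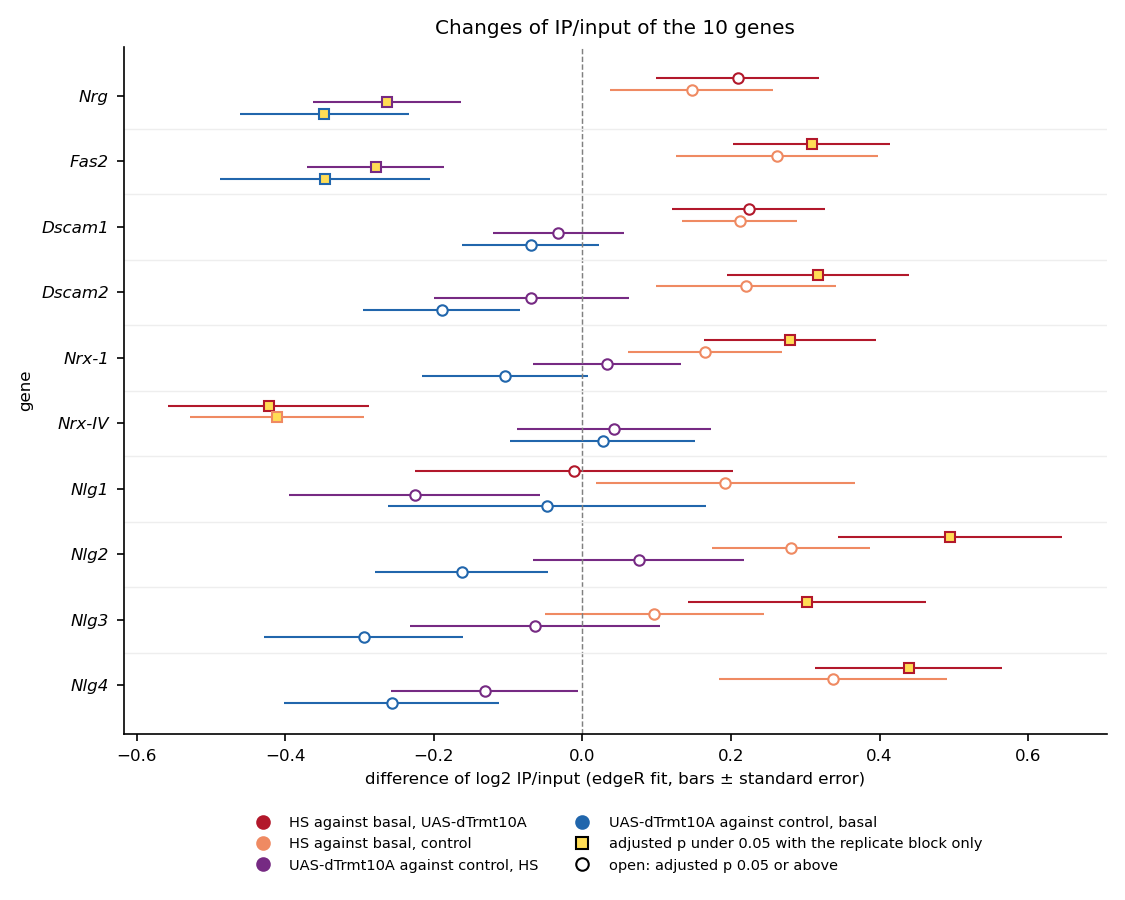
Differences of log2 IP/input (x axis) of the 10 genes (y axis) in 4 comparisons, from the edgeR fit without the block, where bars are ± SE, open circles missed the threshold in both fits and yellow squares passed it with the block for the RNA sample only. HS values lie above 0 for most members and at -0.42 and -0.41 for Nrx-IV, and those of UAS-dTrmt10A against control lie at -0.35 to -0.26 for Nrg and Fas2. With total library size the HS values of Nrg and Dscam1 in UAS-dTrmt10A heads and of Nlg3 in control heads turn below 0.

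The genes whose input RNA was most like each member's over the 15 input libraries, among 8882 genes, were found by Pearson correlation of log2 CPM. They are given as a description, since the libraries share the heat and genotype groups. Nlg4 was most like GlyT (r = 0.984) and VGAT (r = 0.971), which encode transporters of inhibitory transmitters, and Hsepi (r = 0.967). Fas2 was most like ed (r = 0.977), a cell adhesion molecule, sbb (r = 0.964) and ds (r = 0.959), a cadherin. Dscam1 was most like mim (r = 0.975), qvr (r = 0.973) and Ptp4E (r = 0.971), and Dscam2 like Syn (r = 0.959), the synapsin gene, CG30116 (r = 0.954) and CG32809 (r = 0.953).

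Syn was also among the 3 genes closest to Nrx-1 (r = 0.896), after osa (r = 0.914) and skd (r = 0.912). Nlg1 was most like nej (r = 0.95), cno (r = 0.948) and spen (r = 0.938), Nlg2 like CG12851 (r = 0.899), Su(z)2 (r = 0.869) and ewg (r = 0.864), and Nlg3 like CG9346 (r = 0.964), bon (r = 0.96) and sns (r = 0.946), an adhesion molecule of the nephrin type. Nrg was most like mgl (r = 0.936), Vha16-1 (r = 0.904) and CG12075 (r = 0.903). The weakest match was that of Nrx-IV, with CG2926 (r = 0.867), CG14100 (r = 0.857) and CG12728 (r = 0.849).

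Lists of related genes, which share Cont, Lac, Nrt and dlg1 among them, were set beside the members. Of 37 other adhesion molecules, 11 were higher and 8 lower with HS in UAS-dTrmt10A heads, and 7 were higher and 8 lower in control heads, with medians of 0.06 and -0.09. Fas3 rose in UAS-dTrmt10A (0.68, edgeR adjusted p = 0.000279) and in control heads (0.41, edgeR adjusted p = 0.000971), and trn, a leucine-rich repeat adhesion protein, fell in UAS-dTrmt10A (-1.16, edgeR adjusted p = 3.96e-05) and in control heads (-1.31, edgeR adjusted p = 2e-05). The axon guidance receptor robo3 fell in both as well, by 0.53 (edgeR adjusted p = 0.00068) in UAS-dTrmt10A and by 0.59 (edgeR adjusted p = 0.000143) in control heads on the log2 scale. In UAS-dTrmt10A against control heads with HS, the integrin subunit genes scb (0.59, edgeR adjusted p = 0.0449) and mys (0.31, edgeR adjusted p = 0.0215) were higher, and none of the 37 passed in basal conditions or in dTrmt10A RNAi. In control basal heads 27 of the 37 were higher and 6 lower in IP than in input.

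Of 15 septate junction genes, the partners of Nrx-IV and Nrg, 7 were higher and 2 lower with HS in UAS-dTrmt10A and 5 higher and 2 lower in control heads. Among them vari, which encodes a scaffold protein that binds Nrx-IV, rose in UAS-dTrmt10A (0.46, edgeR adjusted p = 0.000659) and control heads (0.48, edgeR adjusted p = 0.000447), and sinu, a claudin, fell in UAS-dTrmt10A (-0.45, edgeR adjusted p = 0.00762) and control heads (-0.59, edgeR adjusted p = 0.000725). In UAS-dTrmt10A against control HS heads Mcr (0.27, edgeR adjusted p = 0.0485) was the 1 septate junction gene past the threshold. In IP against input of control basal heads, 6 of the 15 were higher and 7 lower, with a median of -0.07. The lowest were Mcr (-0.91), Gli (-0.89) and pck (-0.67), and the highest dlg1 (1.13), Atpalpha (0.996) and cora (0.78). Of 13 adaptors and cytoskeletal partners in the table, 9 were higher with HS in UAS-dTrmt10A heads, among them alpha-Spec (0.37, edgeR adjusted p = 0.0015) and CASK (0.32, edgeR adjusted p = 0.00482). In control heads 1 of the 13 was higher and 1 lower, and 11 were higher and 1 lower in IP than in input of control basal heads.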

How the data were processed

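Trimming (Trim Galore), alignment to dm6 (STAR 2.7.3a) and removal of unmapped and improperly paired reads were done by the authors, who then used summarizeOverlaps (union mode) to count reads over FlyBase exons, 1 value per gene. The deposited values are raw counts, not normalized, for 17562 genes and 30 libraries, of which 1461 genes had 0 counts throughout. How multi-mapped reads, duplicates and strand were handled is not given in the sources used here. Antibody was no term, since the labels name only that of Synaptic Systems whereas the methods also name another.

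Counts were tested in R 4.3.3 with edgeR 4.0.16 (filterByExpr with a minimum count of 10 and a minimum total of 15, TMM, quasi-likelihood F-test, Benjamini-Hochberg over all genes tested, threshold 0.05), using only libraries of the groups compared. A change in IP/input is the group by assay interaction, and SE is the log2 change over the root of F. CPM use TMM over the 15 inputs, and log2 IP/input TMM over the 30 libraries with a prior count of 2. A count of 3 was the detection floor, and counting error only is covered by depth. Residuals of IP and input of the same number correlated by 0.162 to 0.396 in all groups, so the block for the RNA sample is printed where it changes a call. Of the inputs, only UAS-dTrmt10A HS and control HS correlated in all pairs (0.137 to 0.248).

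Named are the 10 members, CG14618, up to 3 genes per direction of each list among those past the threshold, and the 3 genes most like each member. The members and lists were chosen with earlier results of these data known. Cell type lists were 8 neuronal, 6 photoreceptor, 8 glial, 6 fat body, 6 muscle and 6 hemocyte markers. Annotation matched 16847 genes by symbol and 658 by an older symbol, and 57 did not match. Alternatives were DESeq2 1.42.0 size factors and its Wald test, total library size, no filter beyond 1 count, all libraries in one fit, the replicate block and fits without 1 replicate at a time. The fits were tested on simulated data. Summaries and figures used Python with pandas and matplotlib.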

Additional observations from a re-analysis of the deposited data

How the results depend on the processing

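Alternatives were run for each count of members past the threshold and each fold change given. With total library size 8 members passed in RNA of control HS against basal heads, and 1, Nrx-IV, in the IP/input change of UAS-dTrmt10A HS against basal heads (65.2% and 5.32% of all genes). Directions turned with that scaling for RNA of control HS against basal heads in Nrx-1 (-0.31), Nlg1 (-0.12), Fas2 (-0.20), Dscam1 (-0.10) and Dscam2 (-0.20), and for UAS-dTrmt10A HS against basal heads in Nrg (-0.083) and Nrx-1 (-0.19). They also turned for IP against input of Nlg1 in UAS-dTrmt10A HS (-0.16) and for the IP/input change with HS of Nlg3 in control (-0.043) and of Nrg (-0.054) and Dscam1 (-0.038) in UAS-dTrmt10A heads. DESeq2's Wald test called 2 members in the RNA interaction (1.93% of all genes) and 1 in IP/input of UAS-dTrmt10A against control HS heads (2.8%).

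With the replicate block the members called were 1 (control HS against basal), 7 (UAS-dTrmt10A HS against basal), 2 (UAS-dTrmt10A against control, basal) and 2 (UAS-dTrmt10A against control, HS) for IP/input changes. For RNA of UAS-dTrmt10A against control basal heads it called 0 (Dscam2 edgeR adjusted p = 0.0613); these inputs share only a number. The block changed no other count of members by over 1.5 times. The cause of these changes was not tested.

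Leaving out 1 replicate gave 3 to 5 members for RNA of control HS against basal heads, with 5 without control basal replicate 2 or control HS replicate 2. It gave 0 to 1 for RNA of UAS-dTrmt10A against control heads in basal conditions and with HS, and 0 to 1 for their IP/input with HS, where Nrg passed without UAS-dTrmt10A HS replicate 3 (edgeR adjusted p = 0.0495). In UAS-dTrmt10A heads the ranges crossed 0 for Nrx-IV RNA with HS (-0.054 to 0.0041), for Nlg1 IP against input with HS (-0.012 to 0.14) and for the Nlg1 IP/input change with HS (-0.089 to 0.070), as for Nlg3 IP/input of UAS-dTrmt10A against control HS heads (-0.22 to 0.0099). Of the other fold changes, 569 of those without a replicate kept their direction and side of the threshold, 14 no longer passed and 6 newly passed. DESeq2 size factors kept 117 of 117.

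Depth limits Nlg1 most, with 183 input and 169 IP counts in its lowest libraries. The 3 replicates per group, 1 value per gene for all isoforms and IP measured over whole genes limit what can be read from these values.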
